A study of Rattus norvegicus with 10 samples.

Results

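Serotonin receptors are the cell surface proteins through which neurons sense serotonin. The 7 genes described here are Htr1a, Htr1b, Htr2a, Htr2c, Htr4, Htr6 and Htr7, all of which encode G protein-coupled receptors. They were taken by gene symbol, with no threshold on a measured value, although earlier results of these data were known when the list was made. Each had 1 row in the table, so they make up 7 of the 32041 RNA records counted, and none was lost to the filter on low counts. Their rows were the RefSeq records NM_012585 (Htr1a), NM_022225 (Htr1b), NM_017254 (Htr2a), NM_012765 (Htr2c), NM_012853 (Htr4), NM_024365 (Htr6) and NM_022938 (Htr7).

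Polyadenylated RNA was sequenced from 10 adult male Sprague-Dawley rats without genetic modification, to ask how expression differs long after a traumatic brain injury (TBI). The 5 TBI rats received a lateral fluid percussion injury, a pressure pulse of 3.32 atm on the exposed left dura. The 5 sham rats had the same anesthesia, craniectomy and surgery without the pulse. The tissue was a piece of the left dorsal hippocampus with CA3 and dentate gyrus, taken 3 months after surgery, and each rat gave 1 library. According to the methods the TBI rats were not monitored by EEG, so it is unknown which of them had seizures.

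Serotonin reaches the hippocampus along fibers from the raphe nuclei of the midbrain, whose cell bodies lie outside the dissected piece. The receptors that respond to it sort by the G protein they engage. Htr1a and Htr1b couple to Gi and Go, which lower cyclic AMP and open inwardly rectifying potassium channels. Htr2a and Htr2c couple to Gq, which activates phospholipase C, and Htr4, Htr6 and Htr7 couple to Gs, which raises cyclic AMP. In the hippocampus Htr1a is known as an inhibitory receptor of pyramidal and granule cells, and Htr1b as an inhibitory receptor on axon terminals.

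Promoter windows of 4 of the 7 genes (Htr1b, Htr2c, Htr6, Htr7) were found in the RefSeq table of assembly GRCr8. Each spans 300 bases, 250 before and 50 after the annotated gene start, and is written 5′ to 3′ on the strand of the gene, with CpG dinucleotides, the sites of DNA methylation, in capitals. The windows of Htr1b and Htr2c are shown because these receptors had the widest spread between rats and the smallest p of the 7. That of Htr1b lies at chr8:91414766-91415065 (minus strand) and that of Htr2c at chrX:115452940-115453239 (plus strand).
Htr1b: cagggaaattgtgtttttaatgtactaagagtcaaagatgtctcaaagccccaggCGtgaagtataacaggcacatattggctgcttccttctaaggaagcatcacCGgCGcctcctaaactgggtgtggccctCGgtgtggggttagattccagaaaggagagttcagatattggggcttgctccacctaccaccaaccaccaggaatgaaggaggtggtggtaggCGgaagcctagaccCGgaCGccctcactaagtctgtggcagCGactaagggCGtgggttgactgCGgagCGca
Htr2c: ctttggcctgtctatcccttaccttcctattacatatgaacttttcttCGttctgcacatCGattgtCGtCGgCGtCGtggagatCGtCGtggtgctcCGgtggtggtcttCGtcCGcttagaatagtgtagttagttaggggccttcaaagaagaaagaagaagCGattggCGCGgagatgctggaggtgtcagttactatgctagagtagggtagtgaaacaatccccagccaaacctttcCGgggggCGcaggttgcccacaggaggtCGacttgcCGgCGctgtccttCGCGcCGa

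The Htr1b window held 11 CpG and the Htr2c window 22, against a median of 7 over 33469 rat promoter windows of this length. Htr6 had 23 CpG, and Htr7 had 44, more than 98.1% of these promoters. On either strand, the CCAAT box (CCAAT) was present in the windows of Htr1b and Htr2c and in 37.5% of all promoters. None of the 4 windows held a TATA box core (TATAAA, in 14.2% of promoters), a GC box (GGGCGG, in 33.1%), an E-box (CACGTG, in 6.42%) or a cAMP response element (TGACGTCA, in 1.83%).

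Between 23425817 and 31671838 reads per library were assigned to RNA records. Ribosomal RNA took 59.0% of them in sham rat 4 and 58.5% in sham rat 5. It took 23.8% to 26.2% in the other sham rats and 12.5% to 25.5% in the TBI rats. The group means were 38.7% in sham and 19.7% in TBI, so this share was not balanced between the groups. Reads outside ribosomal RNA averaged 17169533 in sham and 22866915 in TBI. No batch is labelled, so none could be examined. Prox1 and Grik4, which mark the labelled fields, were present in every library. The dentate granule cell gene Prox1 ranged from 9.55 to 41.4 CPM (read counts relative to the library total after TMM scaling, in units of 1000000 reads) and Grik4, a kainate receptor gene of CA3, from 105 to 152 CPM. Of 8 listed CA3 markers 6 were tested. Cdh24 had no row, and Iyd, lost to the filter on low counts, had 0 reads in TBI rats 3 and 5. Genes that mark CA1, a field the labels do not name, were present too and varied widely between rats. Their values stand beside Htr1b. In such bulk tissue fewer cells of a type and less RNA per cell cannot be told apart.

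No serotonin receptor differed between TBI and sham rats at an adjusted p of 0.05 in the edgeR quasi-likelihood test, a threshold passed by 0 of 22431 rows (0%). The smallest adjusted p of any row was 0.477. Before adjustment, Htr2a and Htr2c were lower in TBI with p under 0.05, which was 2 of 7 receptors against 7.89% of all rows in either direction and 3.00% in this direction. None of the 7 was higher at that level, against 4.89% of all rows. The 2 groups overlapped for every one of the 7, while 0.923% of all rows had CPM ranges that did not overlap. The fitted value was lower in TBI for 6 of 7 receptors, and the median log2 change over the 7 was -0.20, against -0.0080 over all rows, of which 52.2% were lower. Scaling to total counts moved the median of all rows to 0.50, or 0.14 with ribosomal RNA left out, and put 2 and 4 of the 7 below 0, while relative to that median 6 of the 7 stayed lower under both. The standard error of the change was larger for these genes, with a median of 0.22 on the log2 scale against 0.13 over all rows.

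**Figure D1:**
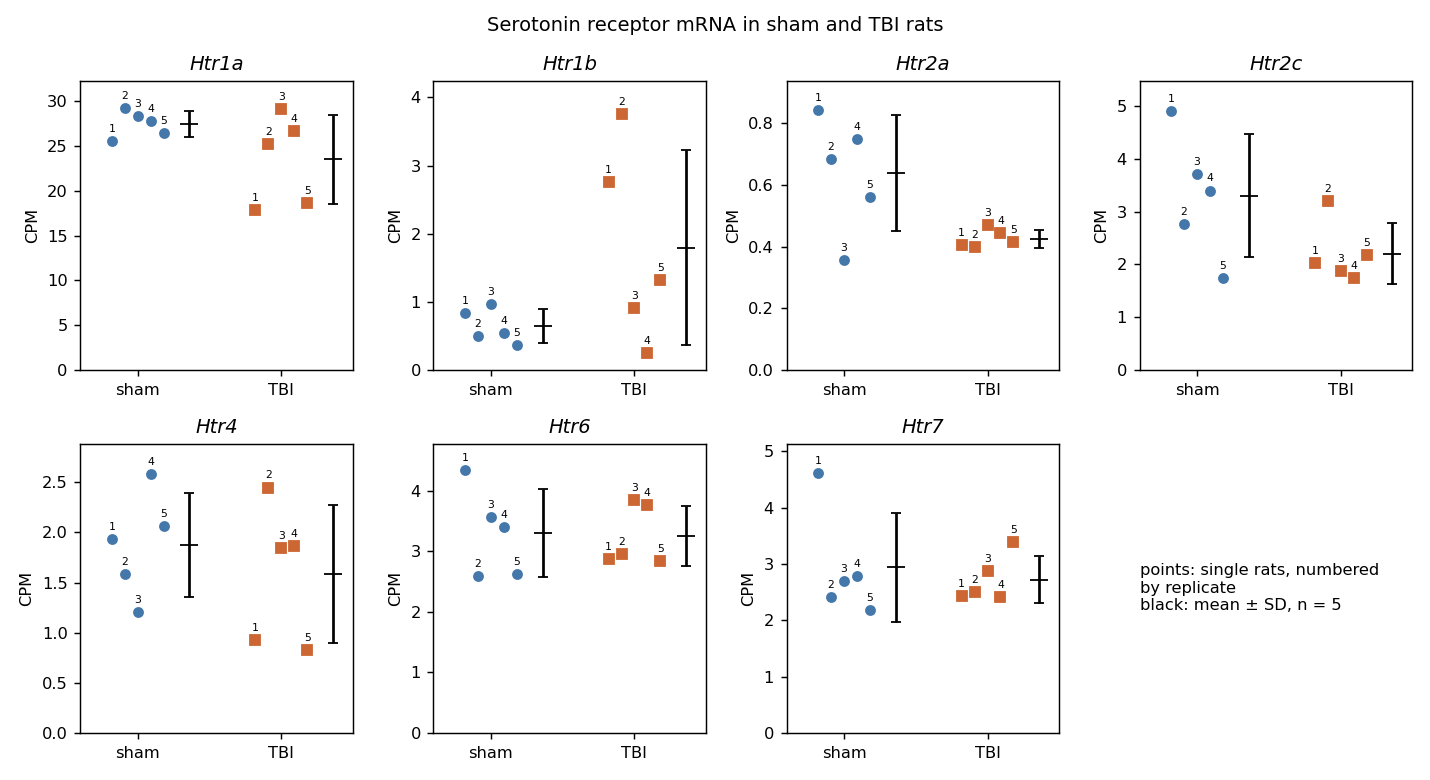
Level of each of the 7 receptor mRNAs (y axis, CPM, each panel with its own scale from 0) in the 5 sham and 5 TBI rats (x axis). Points are single rats numbered by replicate and black marks are the mean ± SD (n = 5). The groups overlap in every panel, and the 3 highest Htr1b values, 3.75, 2.75 and 1.32 CPM, are all TBI rats.

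Htr1a, the Gi-coupled receptor that hyperpolarizes pyramidal and granule cells and also serves as the autoreceptor of raphe neurons, was the member with the deepest counts, from 408 to 992 reads per rat. Its level was 25.6, 29.3, 28.3, 27.7 and 26.4 CPM in sham rats 1 to 5. In TBI rats 1 to 5 it was 17.9, 25.2, 29.1, 26.6 and 18.6 CPM. The sham rats lay close together, whereas TBI rats 1 and 5 stood well below all of them, TBI rat 2 just below them and TBI rats 3 and 4 within their range. The means were 27.4 CPM ± 1.48 (SD, n = 5) in sham and 23.5 CPM ± 4.99 (SD, n = 5) in TBI. The log2 change was -0.23 (SE 0.12, 95% interval -0.48 to 0.02), with an unadjusted p of 0.0737 and an adjusted p of 0.679 by edgeR. The two-sided exact permutation test of its log2 CPM gave p = 0.159. Leaving out 1 rat moved it from -0.14 (without TBI rat 1, edgeR p of 0.203) to -0.31 (without TBI rat 3, edgeR p of 0.0128), with -0.15 (0.198) without TBI rat 5 and -0.27 (0.0429) without TBI rat 4.

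Htr1b, the Gi-coupled receptor of axon terminals, varied most. Its level in sham rats 1 to 5 was 0.843, 0.503, 0.975, 0.544 and 0.375 CPM. In TBI rats 1 to 5 it was 2.75, 3.75, 0.909, 0.253 and 1.32 CPM, a 14.8-fold range over the 10 rats. TBI rats 1, 2 and 5 were above every sham rat, TBI rat 3 was among them and TBI rat 4 was the lowest of all. These values rest on 6 to 30 reads per sham rat and on 95, 141, 31, 8 and 51 reads in TBI rats 1 to 5. The means were 0.648 CPM ± 0.251 (SD, n = 5) in sham and 1.80 CPM ± 1.43 (SD, n = 5) in TBI. The log2 change was 1.40 (SE 0.64, 95% interval -0.03 to 2.84), with an unadjusted p of 0.0538 and an adjusted p of 0.637 by edgeR. In folds this interval runs from 0.980 to 7.14. The exact permutation p was 0.190. The biological coefficient of variation, the spread between rats of a group beyond counting noise, was 63.4% for Htr1b, at the 99.8th percentile of all rows, whose median was 12.8%. The unadjusted p was under 0.05 with DESeq2 (0.0248) and with the edgeR exact test (0.0189), and it was 0.145 with limma voom. Leaving out 1 rat moved the change from 0.95 (without TBI rat 2, edgeR p of 0.119) to 1.67 (without TBI rat 4, edgeR p of 0.00200), with 1.21 (0.109) without TBI rat 1 and 1.57 (0.0425) without TBI rat 3. Scaling to total counts was the only alternative in which a receptor passed the adjusted threshold. Htr1b then had a change of 1.90 (edgeR, adjusted p = 0.00106), which is 1.40 relative to the median row. With that scaling outside ribosomal RNA it was 1.41 relative to the median row (edgeR p of 0.0549, adjusted 0.397). The dispersion of Htr1b, the square of its biological coefficient of variation, was fitted as 0.124 in the former and 0.488 in the latter.

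The level of Htr1b followed that of CA1 pyramidal cell markers across rats. A score for 5 of 7 listed CA1 markers, the mean of their log2 CPM after centering each gene, was -0.36, -1.23, 0.11, -0.50 and -0.32 in sham rats 1 to 5. In TBI rats 1 to 5 the score was 1.22, 1.84, -0.08, -1.33 and 0.64. TBI rats 2, 1 and 5 had the highest CA1 scores and TBI rat 4 the lowest, the same order as for Htr1b. Summed over the markers the level was 67.9 to 146 CPM in sham and 48.0 to 502 CPM in TBI, and no tested marker was at 0. The endoplasmic reticulum protein gene Wfs1, a defining CA1 marker, reached 130, 237 and 91.0 CPM in TBI rats 1, 2 and 5 and was 18.1 to 52.6 CPM in sham. Pearson's r between log2 CPM of Htr1b and the score was 0.948 over the 10 rats (permutation p = 4e-05, adjusted over 35 relations 0.0014), and Spearman's rho was 0.927 (permutation p = 0.00038, adjusted 0.0133). Without TBI rats 2 and 1, the farthest from the median score, r was 0.845 (permutation p = 0.00872), and leaving out 1 rat at a time gave r from 0.915 to 0.977. Each group holds 5 rats, too few for an r of its own. With the CA1 score as a term in the fit, an alternative added after seeing the data, the log2 change of Htr1b was -0.054 (edgeR p of 0.848). Whether the dissected pieces held different amounts of CA1 was not tested, and it cannot be told apart here from a change within CA1 cells.

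**Figure D2:**
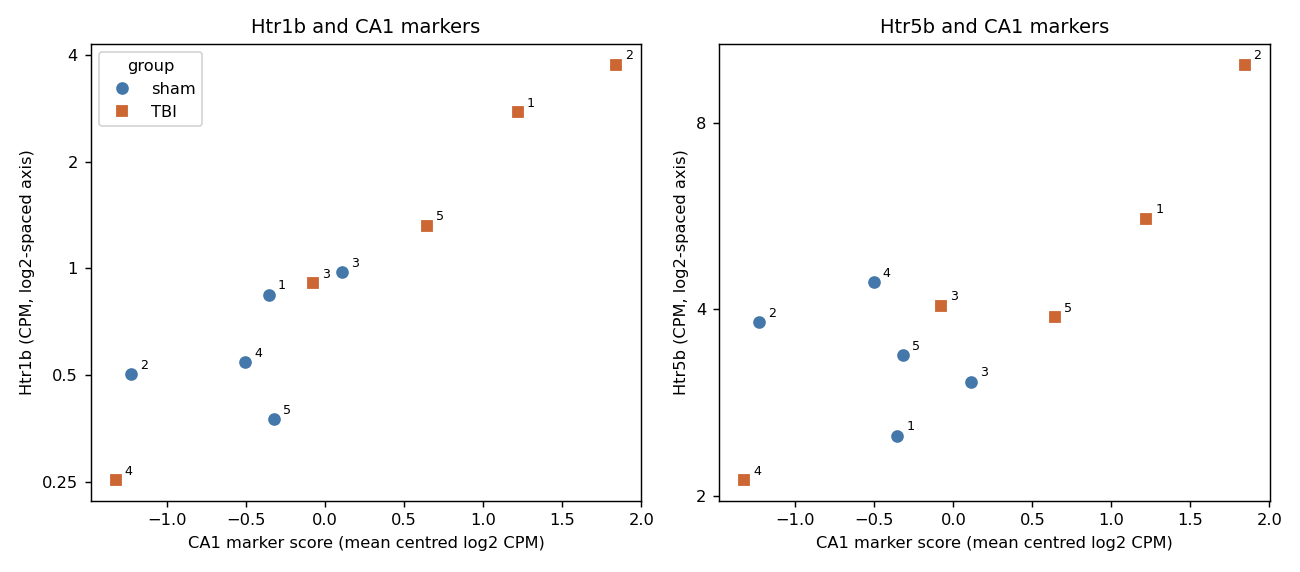
Level of Htr1b (left) and of the receptor gene Htr5b (right) in CPM on log2-spaced y axes against the CA1 marker score (x axis, mean centered log2 CPM) in 10 rats, with replicate numbers beside the points. TBI rats 2 and 1 have the highest score and the highest level of both receptors, and TBI rat 4 has the lowest of both.

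The Gq-coupled receptors were both lower in TBI, with unadjusted p values under 0.05. Htr2a, the receptor of cortical pyramidal cells and of some interneurons, on which hallucinogens act, had 0.843, 0.683, 0.357, 0.748 and 0.562 CPM in sham rats 1 to 5. In TBI rats 1 to 5 it had 0.406, 0.399, 0.469, 0.443 and 0.414 CPM. All 5 TBI rats lay below 4 of the sham rats and above sham rat 3. The means were 0.639 CPM ± 0.187 (SD, n = 5) and 0.426 CPM ± 0.0293 (SD, n = 5). The log2 change was -0.57 (SE 0.26, 95% interval -1.12 to -0.02), with an unadjusted p of 0.0420 and an adjusted p of 0.620 by edgeR, and the exact permutation p was 0.0556. Htr2a had 9 to 27 reads per rat, so counting alone gives a relative error of about 25.5% per sham rat and 25.8% per TBI rat. The observed spread of the TBI rats, 6.86%, was smaller than this counting error. Of 27 alternative analyses, 19 put its unadjusted p above 0.05.

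Htr2c, a receptor best known for its abundance in the choroid plexus and for extensive editing of its mRNA, had the smallest p of the 7. Sham rats 1 to 5 had 4.90, 2.77, 3.70, 3.40 and 1.75 CPM. TBI rats 1 to 5 had 2.03, 3.19, 1.88, 1.74 and 2.18 CPM. Sham rat 5 sat with the low TBI rats and TBI rat 2 with the sham rats, and all 5 TBI rats were below the sham median. The means were 3.30 CPM ± 1.16 (SD, n = 5) in sham and 2.20 CPM ± 0.577 (SD, n = 5) in TBI. The log2 change was -0.61 (SE 0.22, 95% interval -1.08 to -0.14), with an unadjusted p of 0.0147 and an adjusted p of 0.548 by edgeR. In folds the interval is 0.472 to 0.910. The exact permutation p was 0.111. One library weighed on this value, since without sham rat 1 the change was -0.42 (edgeR p of 0.0660). Without sham rats 4 and 5, the libraries rich in ribosomal RNA, it was -0.78 (edgeR p of 0.00235). Of 27 alternative analyses, 6 put the unadjusted p of Htr2c above 0.05. Scaling to total counts gave a change of -0.14 (edgeR p of 0.681), or -0.47 with ribosomal RNA left out (edgeR p of 0.0584). Relative to the median row these changes were -0.64 and -0.61.

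Choroid plexus and interneuron markers were set beside the Gq-coupled receptors. Of 10 choroid plexus markers 9 were tested. Their summed level was 8.03 to 38.6 CPM in sham and 13.7 to 38.1 CPM in TBI. The defining marker Ttr made up 3.31 to 30.8 CPM of this in sham and 6.79 to 31.0 CPM in TBI. Folr1 alone had an unadjusted p under 0.05 and was higher in TBI, as 4.89% of all rows were. Its log2 change was 0.81 (edgeR p of 0.0261), with 4 TBI rats above every sham rat. Over the 10 rats r between Htr2c and the choroid plexus score was -0.264 (permutation p = 0.460, rho -0.358), and with that score in the fit the change of Htr2c was -0.55 (edgeR p of 0.0411). All 12 GABAergic interneuron markers were tested. Of these Gad1, Gad2, Lhx6, Cnr1 and Erbb4 were lower in TBI at an unadjusted p under 0.05, which 3.00% of all rows were, and the summed level was 310 to 428 CPM in sham and 243 to 329 CPM in TBI, with no marker at 0. Gad1, which makes GABA, had a log2 change of -0.46 (edgeR p of 0.000282). With the interneuron score in the fit, an alternative added after seeing the data, the change was -0.26 for Htr2a (edgeR p of 0.456) and -0.33 for Htr2c (edgeR p of 0.265). Across rats r with this score was 0.738 for Htr2a (permutation p = 0.0125, adjusted 0.163, rho 0.794), and it was 0.647 without sham rat 1 and TBI rat 4. For Htr2c it was 0.575 (permutation p = 0.0836, adjusted 0.414), falling to 0.0060 without the same rats. The interneuron score itself differed by -0.29 between TBI and sham. These r can therefore hold part of the difference between groups, and the score as a covariate overlaps with group. The part of interneuron RNA in these differences was not tested further.

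For none of the Gs-coupled receptors was a difference beyond the spread between rats detected. Htr4, which enhances excitability of pyramidal cells, had 1.94, 1.58, 1.20, 2.58 and 2.06 CPM in sham rats 1 to 5. In TBI rats 1 to 5 it had 0.928, 2.45, 1.85, 1.87 and 0.829 CPM. TBI rats 1 and 5, the same rats in which Htr1a was lowest, were below all sham rats, and the other 3 were within their range. The means were 1.87 CPM ± 0.519 (SD, n = 5) and 1.58 CPM ± 0.689 (SD, n = 5), with a log2 change of -0.20 (95% interval -0.81 to 0.40). Leaving out 1 rat moved it from -0.42 (without TBI rat 2) to -0.034 (without TBI rat 5), and it was -0.061 without TBI rat 1, -0.34 without sham rat 3 and -0.086 without sham rat 4. The edgeR p was 0.487 and the adjusted p 0.901, and the exact permutation p was 0.389. Over the 10 rats r between Htr1a and Htr4 was 0.711, the highest of the 21 pairs of receptors, given as a description of rats that share library scaling.

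Htr6, a receptor found on the primary cilium of neurons, was the most even of the 7 between groups. Its level was 4.34, 2.59, 3.57, 3.40 and 2.62 CPM in sham rats 1 to 5 and 2.87, 2.95, 3.84, 3.76 and 2.85 CPM in TBI rats 1 to 5. All TBI rats lay within the sham range. The means were 3.30 CPM ± 0.729 (SD, n = 5) and 3.26 CPM ± 0.502 (SD, n = 5). The log2 change was -0.040 (SE 0.16), and its 95% interval of -0.37 to 0.29 corresponds to 0.773-fold to 1.22-fold. The edgeR p was 0.804 and the adjusted p 0.973, and the exact permutation p was 0.960.

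Htr7, the Gs-coupled receptor also known from the thalamus and from circadian control, had 4.62, 2.41, 2.70, 2.79 and 2.19 CPM in sham rats 1 to 5. In TBI rats 1 to 5 it had 2.44, 2.50, 2.88, 2.40 and 3.39 CPM. Sham rat 1 stood apart from the other sham rats, and no TBI rat reached it. The means were 2.94 CPM ± 0.969 (SD, n = 5) and 2.72 CPM ± 0.420 (SD, n = 5), with a log2 change of -0.13 (95% interval -0.52 to 0.25). The edgeR p was 0.478 and the adjusted p 0.900, and the exact permutation p was 0.770. Without sham rat 1 the change was 0.11, of opposite sign. The same rat had the lowest dentate granule cell score, -0.98 against 0.16 to 0.44 in the other sham rats, with Prox1 at 9.55 CPM. Over the 10 rats Htr7 had r = -0.793 with the granule cell score (permutation p = 0.0140, adjusted 0.163, rho -0.455). Without sham rat 1 and TBI rat 5 r was 0.146, so the relation rests on those rats. Its r with the interneuron score, 0.650 (permutation p = 0.0486, adjusted 0.381, rho 0.442), was 0.111 without sham rat 1 and TBI rat 4.

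**Figure D3:**
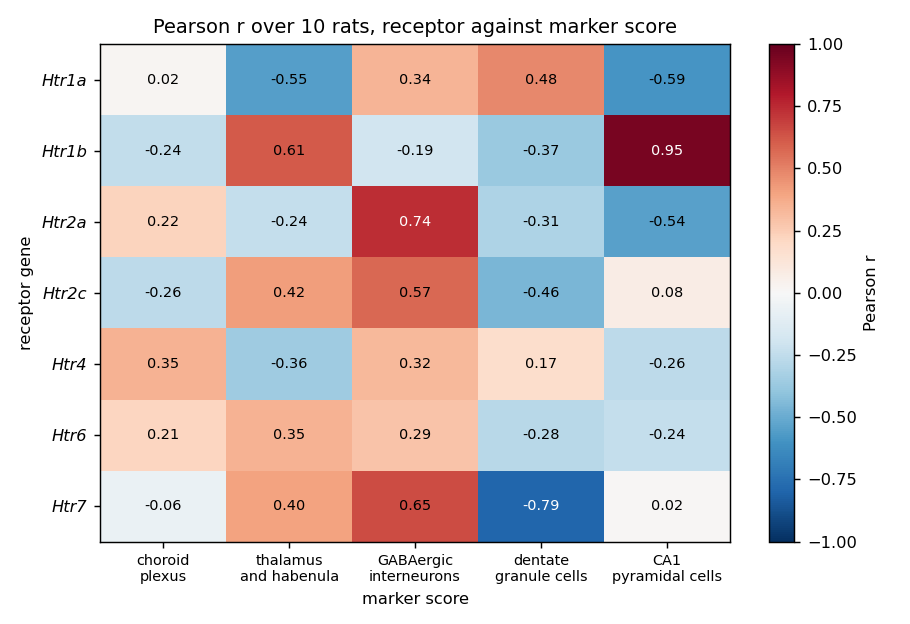
Pearson r over the 10 rats between log2 CPM of each receptor (rows) and the score of each of 5 marker lists (columns), on a color scale from -1 to 1. Of the 35 values, the 0.948 between Htr1b and the CA1 score is the only one past an adjusted permutation p of 0.05.

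Of these 35 relations, 4 had an unadjusted permutation p of r under 0.05, where 1.75 would come from chance if none held. The 4 were those of Htr1b with the CA1 score, Htr2a with the interneuron score, and Htr7 with the granule cell and interneuron scores. For the other receptors the value farthest from 0 was -0.588 for Htr1a with the CA1 score (permutation p = 0.0653, adjusted 0.381, rho -0.600), 0.575 for Htr2c with the interneuron score, -0.358 for Htr4 and 0.347 for Htr6 with the thalamus and habenula score. Leaving out the 2 rats farthest from the median score moved some r away from 0. For Htr1b with the interneuron score r went from -0.193 to -0.861 (unadjusted permutation p = 0.00508). For Htr1a with the granule cell score it went from 0.484 to 0.709 (unadjusted permutation p = 0.0208). None passed an adjusted p of 0.05 after that removal.

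Among 10718 genes with a mean of at least 1 CPM, those whose log2 CPM most resembled a receptor over the 10 rats are given with Pearson's r as the measure of likeness. Htr1b was closest to Ptpru (r = 0.968), a receptor tyrosine phosphatase gene, and to the CA1 list gene Mpped1 (0.951). Htr7 was closest to Calb2 (0.966), the calretinin gene and a member of the interneuron list, and to the pyruvate carboxylase gene Pc (0.959). Sham rat 1 was highest for both Htr7 (4.62 CPM) and Calb2 (7.52 CPM, against 2.87 to 5.98 CPM in the other rats). Htr6 was closest to Slc17a7 (0.945), the vesicular glutamate transporter gene of excitatory neurons, and to Wsb2 (0.928). Htr1a was closest to Hap1 (0.936) and Olfm2 (0.922), Htr2c to the amino acid transporter gene Slc7a3 (0.929) and the retinoid receptor gene Rxrg (0.917), and Htr4 to Dnaja3 (0.901) and the nucleoside transporter gene Slc29a2 (0.894). Htr2a, with a mean under 1 CPM, was not compared. Each of these is the highest or next highest of 10718 values, over rats that share library scaling, and is a description only.

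The remaining serotonin receptor genes were described from a list of 7, of which Htr1d (5 reads over all rats) and Htr3b (4 reads) were under the count minimum. Of the 5 tested, 1 was lower at an unadjusted p under 0.05 and none was higher, against 3.00% and 4.89% of all rows. That gene was Htr3a, the serotonin-gated ion channel subunit of a class of interneurons. It had 3.59, 2.23, 2.14, 2.45 and 1.25 CPM in sham rats 1 to 5 and 1.51, 1.60, 1.35, 1.77 and 2.02 CPM in TBI rats 1 to 5. As for Htr2c, sham rat 1 was highest and every TBI rat was below the sham median. Sham rat 5 was the lowest of all for Htr3a. For Htr2c TBI rat 4 was lowest, at 1.739 CPM against 1.750 CPM in sham rat 5. Its log2 change was -0.53 (SE 0.21, edgeR p of 0.0215, adjusted 0.555, exact permutation p = 0.135), and -0.25 (edgeR p of 0.367) with the interneuron score in the fit. Without sham rat 1 it was -0.31 (edgeR p of 0.135), and without TBI rat 3 the p was 0.0504. Htr5b, named because its mean CPM was the highest in this list, had 5.60 and 9.93 CPM in TBI rats 1 and 2, which were above every sham rat (2.50 to 4.42 CPM). It had 4.05, 2.12 and 3.88 CPM in TBI rats 3 to 5, of which TBI rat 4 was below every sham rat. Its log2 change was 0.61 (SE 0.38, edgeR p of 0.138, exact permutation p = 0.325), and -0.055 (edgeR p of 0.834) with the CA1 score in the fit. Without TBI rat 2 it was 0.22 (edgeR p of 0.361), and without TBI rat 4 it was 0.80 (edgeR p of 0.0159). Changes of the other 3 (Htr1f, Htr2b, Htr5a) ran from -0.54 to 0.12 with p above 0.05.

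**Figure D4:**
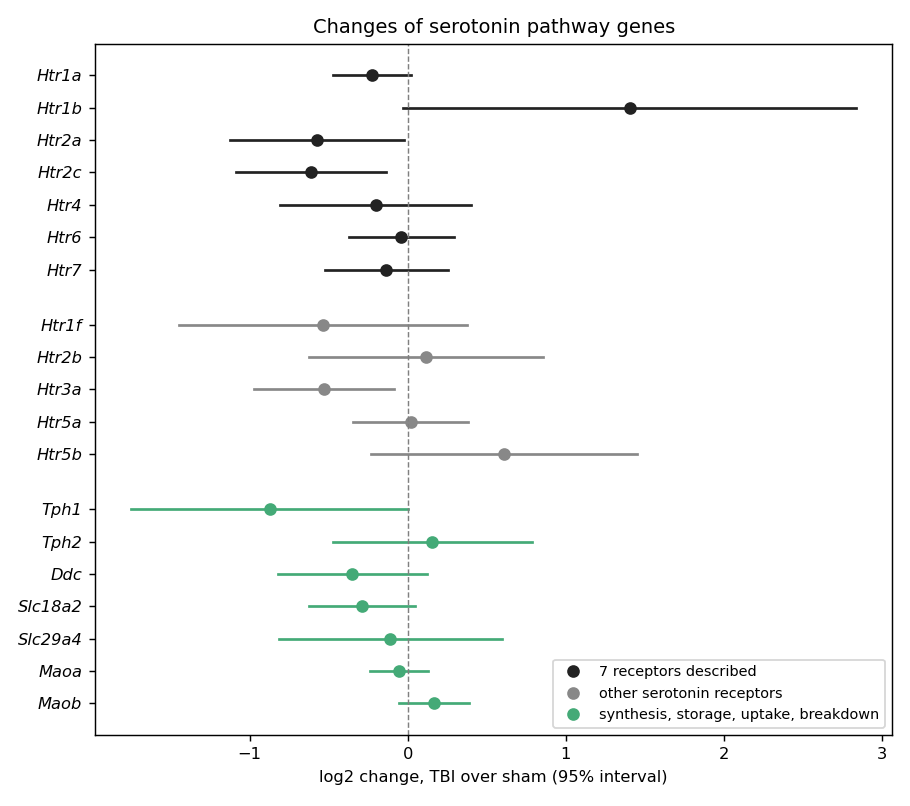
Log2 change of TBI over sham (x axis) for the 7 receptors described, the 5 other receptors tested and 7 genes of serotonin synthesis, storage, uptake and breakdown (y axis). Points are fitted changes with 95% intervals, and the intervals of Htr2a, Htr2c and Htr3a alone do not cross 0.

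Of 9 genes for serotonin synthesis, storage, uptake and breakdown, 7 were tested and none had an unadjusted p under 0.05 in edgeR, against 7.89% of all rows. The serotonin transporter gene Slc6a4 had 14 reads over all rats and the transporter gene Slc22a3 had 11, both under the count minimum. Tph1, which encodes a tryptophan hydroxylase, the first enzyme of serotonin synthesis, had the change farthest from 0, -0.87 (SE 0.40, edgeR p of 0.0511, exact permutation p = 0.190), with sham rats from 1.59 to 6.24 CPM and TBI rats from 1.10 to 2.29 CPM. The other tryptophan hydroxylase gene, Tph2, did not share this direction, with a log2 change of 0.16 (SE 0.30, edgeR p of 0.611). Its sham rats ran from 0.219 to 0.937 CPM and its TBI rats from 0.559 to 0.957 CPM. The vesicular monoamine transporter gene Slc18a2 was 1.82 to 2.81 CPM in sham and 1.49 to 2.05 CPM in TBI (edgeR p of 0.0867, exact permutation p = 0.0476). Maob, a monoamine oxidase gene and the one with the highest mean CPM in this list, was 37.1 CPM ± 3.35 (SD, n = 5) in sham and 41.6 CPM ± 7.16 (SD, n = 5) in TBI. Its log2 change of 0.17 (edgeR p of 0.133) was 0.088 (0.390) without TBI rat 1, 0.23 (0.0387) without TBI rat 3 and 0.23 (0.0475) without TBI rat 4.

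Downstream of Htr1a and Htr1b, 10 of 10 genes of the Gi and Go branch were tested and 1 had an unadjusted p under 0.05, close to the 7.89% of all rows. Gnai2, a G protein alpha subunit gene, was 247 CPM ± 15.8 (SD, n = 5) in sham and 286 CPM ± 20.2 (SD, n = 5) in TBI, with 4 TBI rats above every sham rat. Its log2 change was 0.21 (SE 0.08, edgeR p of 0.0120, adjusted 0.511, exact permutation p = 0.0159). The p was under 0.05 in 21 of 26 alternative fits. By edgeR it was 0.0647 with the CA1 score, 0.189 with the interneuron score and 0.0915 with the ribosomal RNA share in the fit. The potassium channel genes Kcnj3, Kcnj6 and Kcnj9, through which Htr1a acts, had changes of -0.090, -0.067 and -0.012.

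Downstream of Htr2a and Htr2c, 8 of 9 genes were tested (Prkca had no row) and 1 had an unadjusted p under 0.05, close to the 7.89% of all rows. Plcb3, a phospholipase C gene, was 8.69 CPM ± 0.842 (SD, n = 5) in sham and 10.9 CPM ± 1.22 (SD, n = 5) in TBI, a log2 change of 0.32 (SE 0.10) in the direction opposite to both receptors. Its edgeR p was 0.00615, its adjusted p 0.487 and its exact permutation p 0.0238. The p was under 0.05 in 24 of 26 alternative fits. By edgeR it was 0.0554 with the CA1 score and 0.117 with the interneuron score in the fit.

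Downstream of Htr4, Htr6 and Htr7, 11 of 13 genes were tested (Adcy9 and Rapgef4 had no row), and 1 was higher and 1 lower at an unadjusted p under 0.05, against 4.89% and 3.00% of all rows. Rapgef3, a cyclic AMP sensor, was higher, with a log2 change of 0.26 (SE 0.10, edgeR p of 0.0193, adjusted 0.555, exact permutation p = 0.0476) and 33.1 CPM ± 5.30 in TBI against 27.6 CPM ± 2.45 in sham (SD). Without TBI rat 1 the log2 change was 0.16 (edgeR p of 0.0791), and with the CA1 score in the fit 0.13 (edgeR p of 0.228). Adcy8, an adenylyl cyclase gene, was lower, with a log2 change of -0.40 (SE 0.18, edgeR p of 0.0433, adjusted 0.621, exact permutation p = 0.159). Its sham rats ran from 3.62 to 8.69 CPM and its TBI rats from 4.29 to 5.38 CPM. The highest sham values, 8.16 and 8.69 CPM, were those of sham rats 4 and 5, the libraries rich in ribosomal RNA. The change was -0.11 (edgeR p of 0.530) without them, and with all rats it was -0.032 (edgeR p of 0.862) with the ribosomal RNA share in the fit and -0.068 (edgeR p of 0.667) with a surrogate variable. Gnas, the Gs alpha subunit gene with the highest mean CPM in the list, had a change of -0.029.

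Among 10 proteins that bind these receptors or regulate them, all of whose genes were tested, 2 were lower at an unadjusted p under 0.05, against 3.00% of all rows. Mpdz, which encodes a scaffold that binds the tail of Htr2c, was 55.0 CPM ± 4.52 (SD, n = 5) in sham and 47.6 CPM ± 3.56 (SD, n = 5) in TBI, a log2 change of -0.21 (SE 0.08). Its edgeR p was 0.0168, its adjusted p 0.548 and its exact permutation p 0.0397. Cops5, a gene of the COP9 signalosome, had a log2 change of -0.18 (SE 0.09, edgeR p of 0.0492, exact permutation p = 0.0794), and its p was under 0.05 in 10 of 26 alternative fits. Dlg4, the postsynaptic scaffold gene with the highest mean CPM of the list, had a change of -0.085. Over all 51 genes tested of the 58 listed around the receptors, 3 were higher and 4 lower at an unadjusted p under 0.05, against 4.89% and 3.00% of all rows, none passed the adjusted threshold and the median log2 change was -0.029.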

How the data were processed

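Messenger RNA of 10 rats (5 sham, 5 TBI) was read in single reads of 36 bases. The labels and the table hold 5 sham rats, whereas the methods give fewer controls for mRNA profiling in one place, and which rats these were is not stated. The authors deposited raw counts per RNA record, not normalized or pooled. Per their methods and notes, reads were aligned with BWA to rn4 and counted by a custom script. The methods name Ensembl transcripts, whereas the rows are RefSeq records. Strand use in counting was not stated, so overlapping transcripts are uncertain.

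Of 32043 rows, 32041 named a record, and 54.2% of these received a symbol from a RefSeq gene table of another assembly, used for names only. As in the study, rows with a total count under 44 (the 30th percentile) were dropped, leaving 22431. Groups were compared in R 4.3.3 by the robust quasi-likelihood F test of edgeR 4.0.16 after TMM normalization, and p-values were adjusted over all rows by the Benjamini-Hochberg method. CPM are counts relative to the TMM-adjusted library total, in units of 1000000 reads, and log2 CPM used a prior count of 2. Intervals are 95%. The fit was tested on counts simulated from the observed means, dispersions and library sizes with planted changes. These held no differences in ribosomal RNA share or dissection between rats. Replicates are separate rats and replicate numbers follow sample order. Exact permutation tests used 252 labelled splits, with a smallest p of 0.00794. Correlations used 100000 resamples.

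Alternatives were DESeq2 1.42.0, limma 3.58.1 voom, the edgeR exact test, other scalings and filters, sva 3.50.0, rRNA share, choroid plexus, CA1 and interneuron scores as covariates, and leaving out rats. By the mean count of each group, counting error was largest for Htr2a (25.5% in sham, 25.8% in TBI). For Htr1b it was 24.3% in sham and 12.4% in TBI. The lowest count of a single rat was 6 reads, for Htr1b in sham rat 5, against 9 for Htr2a in the same rat. Levels were not compared between genes, since transcript lengths were not used here.

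Named were the 7 receptors, listed pathway genes with an unadjusted p under 0.05 or groups apart, the gene of highest mean CPM per list, and the 2 genes most like each receptor. The values of 1 gene that these rules name are not reported here. Genes outside these rules (Tph1, Tph2, Slc18a2, Kcnj3, Kcnj6, Kcnj9, markers and genes under the minimum) were chosen after their values were seen. The receptors and lists were chosen with earlier results of these data known.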

Additional observations from a re-analysis of the deposited data

Results flagged for a closer look

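In 4 of 46 groups of 5 rats examined, 1 rat was farther from the others than Dixon's test allows at 95%. Chance gives about 2.3 such groups. Htr7 was 4.62 CPM in sham rat 1, against 2.19 to 2.79 CPM in the other sham rats. The dentate granule cell score was -0.98 in the same rat and 0.16 to 0.44 in the others. Gnai2 was 274 CPM in sham rat 3, against 236 to 245 CPM. Gnas was 294 CPM in sham rat 2, against 344 to 365 CPM. All of these were sham rats.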

How the results depend on the processing

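Of 26 alternative fits, the number of rows past an adjusted p of 0.05 (0 in the edgeR test) was 92 with total count scaling, 3 with DESeq2 and 319 without sham and TBI rat 3 together, and 0 to 12 leaving out 1 rat. Rows with an unadjusted p under 0.05 (1769) numbered 818 with the CA1 score, 1010 with the interneuron score, 992 with the rRNA share, 1141 with a surrogate variable, 3788 with total count scaling, 2902 with that scaling outside rRNA, and 1162 to 2571 leaving out 1 rat. The 12 adjusted rows came without TBI rat 3 and the 2571 unadjusted rows without sham rat 3. The 319 rows thus came from leaving out these same rats together, which no label pairs. Among the 7 receptors, 1 (Htr1b) passed the adjusted threshold with total count scaling. Those with an unadjusted p under 0.05 (2) numbered 1 with the CA1 score, limma voom, no filter, the rRNA share, a surrogate variable, total count scaling or without sham rats 4 and 5, and 0 with the interneuron score or scaling outside rRNA. Leaving out 1 rat gave 0 (without sham rat 1) to 4 (without TBI rat 3). Pathway genes (7) numbered 1 with the CA1 score, 4 with the rRNA share or a surrogate variable, 3 without sham rats 4 and 5, and 5 to 9 leaving out 1 rat. Relations past the adjusted p (1) numbered 0 without the 2 farthest rats, 10 with total count scaling and 1 in each fit leaving out 1 rat.

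Log2 changes took the opposite sign as follows. With the CA1 score Htr1b was -0.054, Htr6 0.029, Gnas 0.014 and Htr5b -0.055. With the interneuron score Htr6 was 0.12, Htr7 0.31 and Gnas 0.063. Htr4 was 0.088 with the rRNA share, 0.021 with a surrogate variable and 0.011 without sham rats 4 and 5, where Gnas was 0.0077. With total count scaling Htr1a was 0.26, Htr4 0.37, Htr6 0.45, Htr7 0.36, Adcy8 0.20, Mpdz 0.28, Cops5 0.31, Dlg4 0.43 and Gnas 0.49, all below the median row at 0.50. Outside rRNA Htr6 was 0.10, Htr7 0.011, Dlg4 0.072 and Gnas 0.13. Leaving out 1 rat gave Htr6 from -0.12 to 0.086, Htr7 from -0.23 to 0.11 and Gnas from -0.079 to 0.035. The cause was not tested beyond the construction of each alternative. Levels per transcript length were not run. No paired analysis was possible because the labels give sham and TBI rats no shared numbers.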
